A study of Homo sapiens with 2 samples.

Results

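HOX genes encode homeodomain transcription factors that set positional identity along the body axis, and in human cells they lie in clusters A, B, C and D on chromosomes 7, 17, 12 and 2. Members were taken as probe sets whose only gene symbol in the platform annotation is HOX, a cluster letter and a number. This gave 27 genes with 1 probe set each, of 18417 genes in all: 1 in cluster A (HOXA2), 10 in cluster B, 7 in cluster C and 9 in cluster D. The symbol rule itself used no measured value, though the members were chosen with earlier results of these arrays known. Of the 38 symbols looked for, HOXC4 and HOXC6 share a probe set that carries both names and is described apart, and 9 HOXA genes were not analysed here, so that cluster A is represented by HOXA2 alone.

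The values come from SW480, an established human colorectal adenocarcinoma line, profiled on 2 arrays. The array labelled TFAP2E overexpression holds RNA of stable SW480 transfectants that carry the coding sequence of TFAP2E, which encodes the transcription factor AP-2 epsilon, in the pTarget vector. The array labelled empty vector holds RNA of SW480 cells with that vector alone. Both kinds of cell were kept under Geneticin for some weeks and came from picked single clones, and the labels do not say whether an array holds 1 clone or several. A difference between clones therefore cannot be told apart from an effect of TFAP2E, and with 1 array per group no value has an error, a replicate or a test.

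The numbering of HOX genes follows their order in a cluster. Genes with low numbers lie at the end that is switched on early and towards the head in the embryo, and genes with high numbers at the end used late and towards the tail. Genes of the same number in different clusters are paralogs, descended from a common ancestor, and make up a paralog group. HOX proteins bind DNA together with TALE cofactors of the PBX, MEIS and PKNOX families, Polycomb complexes keep silent clusters repressed, and trithorax complexes keep active ones open. In the intestine, HOX expression marks position along the gut, and HOXB13 is a marker of the hindgut and prostate. The clusters also hold microRNA genes: MIR10A lies inside the HOXB3 transcription unit, between HOXB4 and HOXB5 in the RefSeq order, and MIR196A1 lies between HOXB9 and HOXB13. Both microRNA families are known to target HOX messages.

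The mature microRNAs of these loci are shown because both genes lie within cluster B and their probe sets are described beside those of the HOXB genes. Sequences are from RefSeq (GRCh38.p14), both loci are on the minus strand, and capitals mark the seed, bases 2 to 8, which pairs with target messages. The miR-10a sequence lies at chr17:48579904-48579926 and the miR-196a sequence at chr17:48632532-48632553.
hsa-miR-10a-5p: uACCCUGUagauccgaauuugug
hsa-miR-196a-5p: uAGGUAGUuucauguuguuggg
Their seeds differ from each other. The same miR-196a sequence is also made from MIR196A2, which lies between HOXC9 and HOXC10 in cluster C.

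Values are log2 expression values that the authors made with RMA, and every difference is the TFAP2E array minus the empty vector array. A gene was counted as measured when the higher of its values reached 5.55, the median of both arrays' probe sets together, and genes below it are called dim. That line is not a detection limit. It left 11548 genes, whose differences had a median of 0.04, with 95% of them between -0.37 and 0.47. Probe sets differ in how brightly they read, so levels of different genes are not ranked here. The probe set of TFAP2E read 6.81 on the TFAP2E array and 6.77 on the empty vector array, so that the introduced gene does not show in these values and all directions rest on the labels. Of the colorectal epithelial markers 9 of 11 were measured, with EPCAM (-0.06), KRT8 (-0.20) and KRT18 (-0.02) bright on both arrays. CDH1 lay at -0.71 and VIL1, dim on the empty vector array, at 1.28. CDH17 (3.27 on the TFAP2E array against 3.44) and GPA33 (4.41 against 4.84) were dim. Of markers of other cells, 7 of 10 for fibroblasts, 5 of 7 for endothelium and 6 of 9 for leukocytes were dim, with DCN, LUM, PDGFRA, PECAM1, CDH5 and PTPRC below 4.5 on both arrays. The measured ones differed by -0.09 to 0.33 for fibroblasts (ACTA2 highest), -0.13 to 0.00 for endothelium and -0.19 to 0.57 for leukocytes (CD68 highest). Among these, ACTA2 read 7.04 on the TFAP2E array against 6.71, and COL1A1 6.45 against 6.40. CD68 read 6.60 against 6.02, and CLDN5 6.47 against 6.60. The part of these markers in the HOX values was not tested.

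Of the 27 HOX genes, 21 were measured: 9 of cluster B, 6 of cluster C, 6 of cluster D and none of cluster A. On the TFAP2E array 13 of the 21 were lower and 8 higher, with a median difference of -0.14. Over all measured genes 39.5% were lower and 59.2% higher. None of the 21 reached 2-fold, where 0.113% of all genes were lower and 0.0866% higher (0.199% together). At 1.5-fold, 2 were lower (0.606% of all genes) and none was higher (0.892%). At a difference of 25%, the brighter array over the dimmer, 5 were lower (3.8%) and 1 higher (7.9%). With both values above the line, 4 were lower and 1 higher, since HOXC5 passed through the empty vector array alone. In RNA from a whole culture, fewer cells that express a gene and less of its RNA per cell cannot be told apart.

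**Figure D1:**
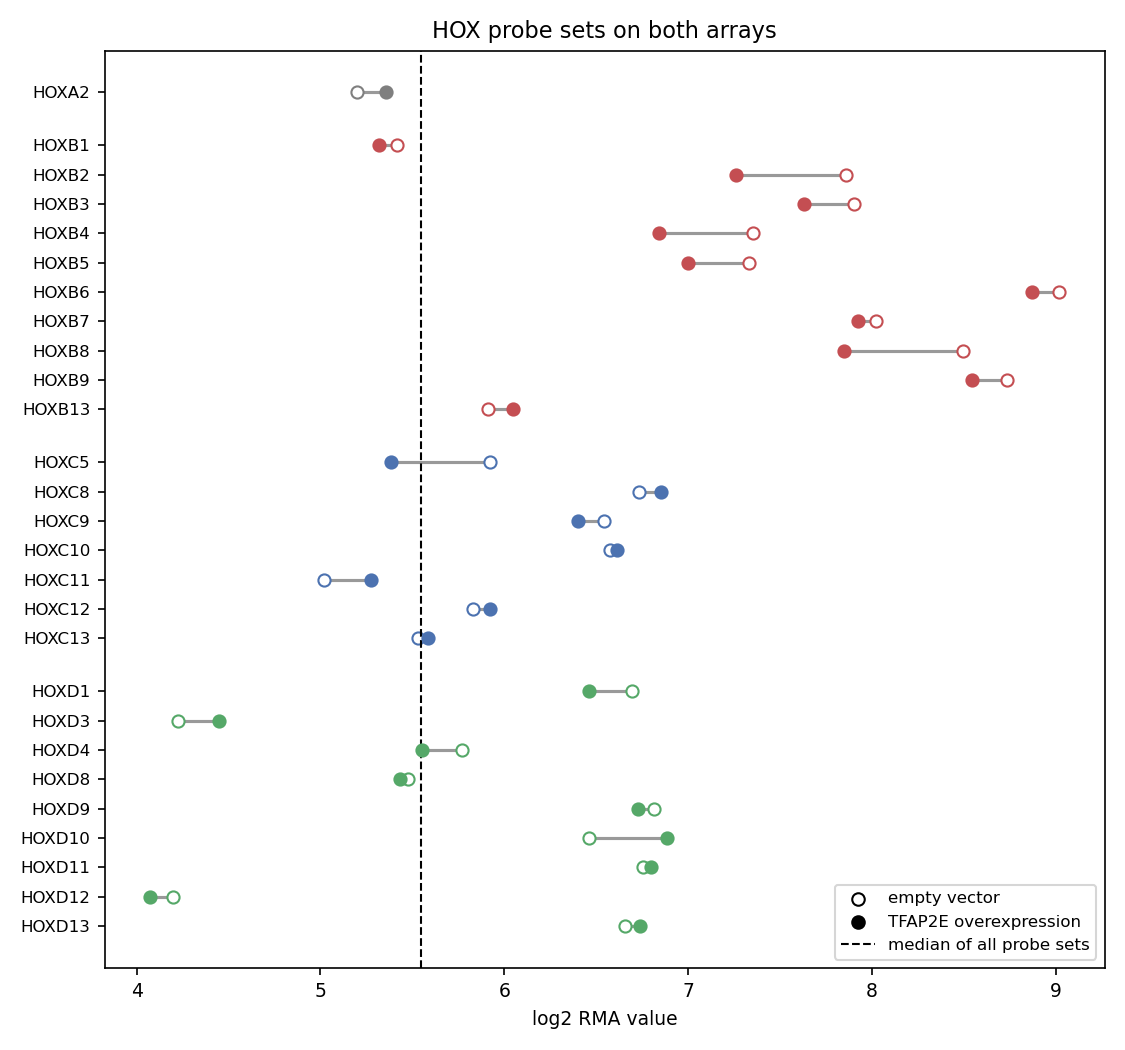
Log2 RMA values of the 27 HOX probe sets on the empty vector array (open points) and the TFAP2E array (filled points), ordered by cluster and number. Points left of the dashed line at 5.55 are below the median of all probe sets, and the longest leftward steps are those of HOXB8, HOXB2, HOXC5 and HOXB4.

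Cluster B had the lowest median of the clusters and the members with the lowest differences, HOXB8 and HOXB2. HOXC5 and HOXD10, of other clusters, differed by more than most of its genes. Its measured members were lower in 8 of 9 cases, and the median was -0.27. The 8 genes from HOXB2 to HOXB9 were all lower, between -0.65 and -0.10, and their median was -0.30, and HOXB13 at the far end was not. Without those 8 genes the other measured members split into 5 lower and 8 higher. That is near the split over all measured genes, 39.5% lower and 59.2% higher.

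HOXB8 had the lowest difference of all members. It read 7.85 on the TFAP2E array and 8.49 on the empty vector array, which is 1.57-fold lower (-0.65), and only 0.442% of all measured genes lay below it. HOXB8 belongs to the trunk part of the cluster and is known for keeping blood progenitors immature when forced on. HOXB2, known for its part in hindbrain patterning, read 7.26 against 7.86, which is 1.51-fold lower (-0.60). HOXB8 and HOXB2 are thus the members past 1.5-fold, and they are not next to each other in the cluster.

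HOXB4, known for expanding blood stem cells, read 6.84 against 7.35, a difference of -0.51. HOXB5, which takes part in the development of the enteric nervous system, read 7.0 against 7.33, and differed by -0.33. HOXB3, whose gene overlaps that of HOXB4 in the RefSeq table, read 7.63 against 7.90, a difference of -0.27. These genes lie between HOXB2 and HOXB8, and of them HOXB4 and HOXB5 passed the 25% rule.

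The other lower members of cluster B differed less. HOXB9 read 8.54 against 8.73 (-0.19), HOXB6 8.87 against 9.02 (-0.15), and HOXB7 7.92 against 8.02 (-0.10). Each of these lay inside the range that held 95% of genes, as did HOXB3 and HOXB5, whereas HOXB2, HOXB4 and HOXB8 lay below it. HOXB13, which stands apart from the rest of the cluster in the genome, read 6.05 on the TFAP2E array and 5.91 with the empty vector, which makes 0.14. HOXB1, at the other end, was dim at 5.32 against 5.41 (-0.09).

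In cluster C, 2 of 6 measured genes were lower and 4 higher (median 0.05). This was near the 39.5% lower, 59.2% higher and median of 0.04 over all measured genes. HOXC5 alone passed the 25% rule, at 5.38 on the TFAP2E array, where it was dim, against 5.92 (-0.54). It was thus counted as measured through the empty vector array alone, and the filter itself favoured a lower value. HOXC4, HOXC5 and HOXC6 overlap and have the same start in the RefSeq table, and the probe set named for both HOXC4 and HOXC6 read 5.69 against 5.80, a smaller difference of -0.11. HOXC9 read 6.40 against 6.54 (-0.14). HOXC8 went the other way at 6.85 against 6.73 (0.12), opposite in sign to its paralog HOXB8.

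The posterior genes of cluster C differed little. HOXC12 read 5.92 against 5.83 (0.09), HOXC13, a gene of hair and nail formation and measured through the TFAP2E array alone, 5.59 against 5.53 (0.06), and HOXC10 6.61 against 6.57 (0.04). HOXC10 was thus no higher than the median gene. HOXC11 was dim at 5.28 against 5.02 (0.26).

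In cluster D, 3 of 6 measured genes were lower and 3 higher (median -0.02). Over all measured genes 39.5% were lower and 59.2% higher (median 0.04). HOXD10, a gene of limb and spinal cord patterning and a known target of miR-10b, had the highest difference of all members. It read 6.88 on the TFAP2E array against 6.46 on the empty vector array, which is 1.34-fold higher (0.43), and stood above 96.6% of all measured genes. No other HOX gene that was higher reached 25%.

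At the anterior end of cluster D, HOXD1 read 6.46 against 6.70 (-0.24), and HOXD4, which overlaps HOXD3, 5.55 against 5.77 (-0.22), so that HOXD4 stood at the line of 5.55 on the TFAP2E array. HOXD9 read 6.73 against 6.81 (-0.08). At the posterior end HOXD13, a gene of digit formation, read 6.74 against 6.66 (0.08), and HOXD11 6.80 against 6.75 (0.04). These anterior genes were lower and these posterior genes higher, and none of them reached 25%.

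The other dim members, with both values under 5.55, were HOXA2 at 5.36 against 5.20 (0.16), HOXD3 at 4.45 against 4.23 (0.22), HOXD12 at 4.08 against 4.20 (-0.12) and HOXD8 at 5.43 against 5.48 (-0.05). HOXD8 falls outside the rule for named genes and is given as the only member left. Just inside the filter stood HOXC13 with a higher value of 5.59, and just outside it HOXD8 with 5.48.

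The signs of the measured genes differed by position in the cluster. A division of the measured genes at paralog groups 9 and 10 was chosen after the values were seen, and serves as description. Among paralog groups 1 to 9, 13 of 14 genes were lower (median -0.23), against 39.5% of all measured genes, and HOXC8 was the exception. Among groups 10 to 13, 7 of 7 were higher, against 59.2% of all measured genes. Their median was 0.08, near the median of 0.04 over all measured genes. In clusters C and D without cluster B, 5 of 6 genes of groups 1 to 9 were lower (median -0.18) and 6 of 6 of groups 10 to 13 higher. These counts include HOXC5, for which the filter favoured a lower value, and HOXC13, for which it favoured a higher one. With both values above the line, groups 1 to 9 of all clusters had 12 lower and 1 higher. Groups 10 to 13 then had 6 higher and 0 lower.

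The sizes on the posterior side were small. Apart from HOXD10 at 0.43, the 7 posterior genes lay between 0.04 and 0.14, and 2 of them, HOXC10 and HOXD11, lay below the median difference of all genes, 0.04. Counted from that median instead of 0, 5 posterior genes were higher and 2 lower, while groups 1 to 9 kept 13 lower and 1 higher. With the dim members included, 15 of 18 genes of groups 1 to 9 were lower. Of groups 10 to 13, 8 of 9 were higher. The exceptions were HOXA2, HOXD3 and HOXC8 on one side and HOXD12 on the other. Over the whole series, 47.2% of dim genes and 39.5% of measured genes lay below 0. Over the 21 measured genes, the difference and the paralog number had a Spearman correlation of 0.79. Within the clusters it was 0.52 over 9 genes of cluster B, 0.37 over 6 of cluster C and 0.83 over 6 of cluster D. These correlations run across genes that share the same arrays and are not independent, and they describe this set alone. Those over all measured genes and over cluster C include HOXC5 and HOXC13, whose signs the filter favoured. They were not computed without these genes.

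**Figure D2:**
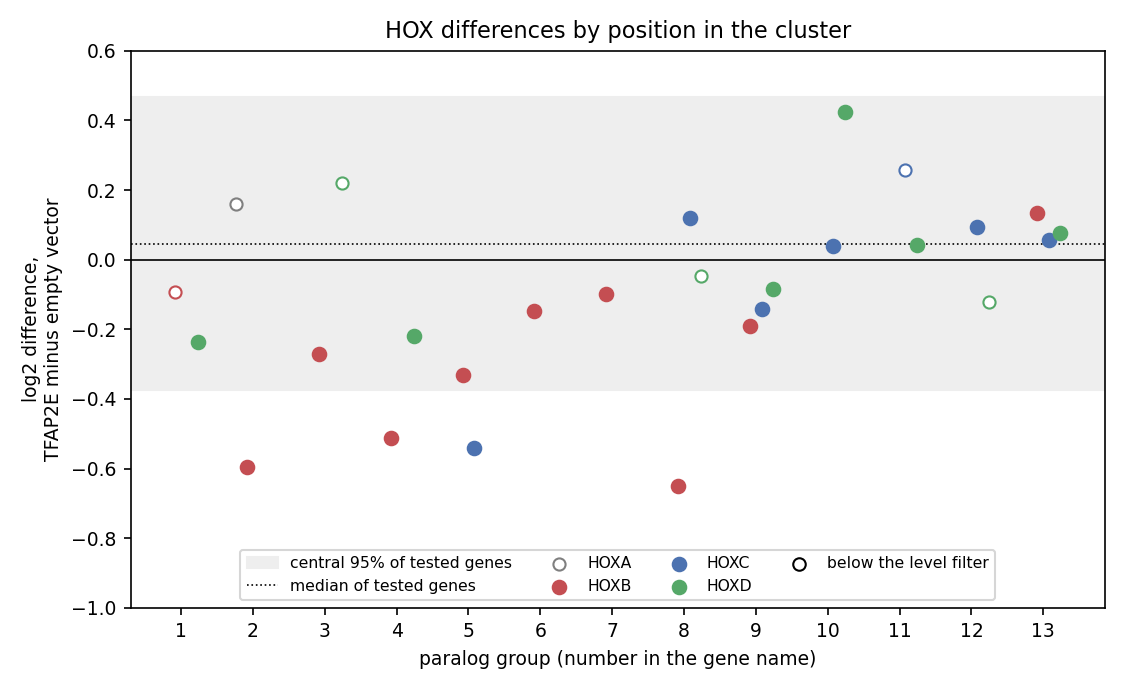
Log2 difference, TFAP2E minus empty vector, of each HOX gene against its paralog group, coloured by cluster, with dim genes as open points; the shaded band holds 95% of all measured genes and the dotted line is their median, 0.04. Filled points of groups 1 to 9 lie below 0 except HOXC8, and those of groups 10 to 13 lie between 0.04 and 0.43.

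Paralogs of the same group can be set side by side. In group 4, HOXB4 (-0.51) and HOXD4 (-0.22) were both lower. In group 5, HOXB5 (-0.33) and HOXC5 (-0.54) were too, HOXC5 being measured through the empty vector array alone. In group 9 HOXB9, HOXC9 and HOXD9 lay at -0.19, -0.14 and -0.08. Group 13 had all its 3 measured members above 0, HOXB13 at 0.14, HOXD13 at 0.08 and HOXC13, measured through the TFAP2E array alone, at 0.06. Group 8 was the group whose measured members differed in sign, with HOXB8 at -0.65 and HOXC8 at 0.12. In group 10, HOXD10 (0.43) and HOXC10 (0.04) had the same sign with unlike sizes.

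The microRNA genes inside cluster B were measured only by way of 1 array. MIR10A read 4.91 on the TFAP2E array and 5.59 on the empty vector array (-0.67), and MIR196A1 read 5.33 against 5.70 (-0.37). Both reached the filter on the empty vector array alone and were dim on the other, so the filter itself favoured a lower value and these readings lend nothing to the HOXB values. Among the 39 microRNA genes that passed the filter, 15.4% were lower by the 25% rule and 51.3% lay below 0, a wider spread than among all genes (standard deviation 0.273 against 0.219). The probe sets read RNA that contains the microRNA gene, and the labels do not give which part of the transcript they cover, so RNA of HOXB3 and of MIR10A cannot be told apart by name alone. MIR10B, between HOXD4 and HOXD8, and MIR196A2 were dim.

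HOXB-AS3, a noncoding RNA that overlaps HOXB5 and HOXB6, did not share the lower values of those genes. It read 6.85 on the TFAP2E array and 6.77 on the empty vector array (0.08), against -0.33 for HOXB5 and -0.15 for HOXB6. HOXA-AS2, which overlaps HOXA3 and HOXA4, was dim at 3.93 against 4.06. Of 23 noncoding RNAs listed for the clusters, 6 had a probe set of their own and 3 were measured. The sources used here do not give whether the array tells the strands apart.

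The genes next to cluster B did not follow it. Of the 5 protein-coding genes on each side in the RefSeq order, 9 were measured, and 7 of these were higher and 2 lower, with a median of 0.09. Over all measured genes 59.2% were higher and 39.5% lower, with a median of 0.04. SKAP1, an adaptor of T cell signalling next to HOXB1, read 7.22 against 7.12 (0.09), and SNX11 beyond it differed by 0.01. On the HOXB13 side CALCOCO2, an autophagy receptor, differed by 0.38 and UBE2Z by -0.16. PRAC1, between HOXB9 and HOXB13, was dim at 4.33 against 4.45 (-0.12). Among measured protein-coding genes of this stretch, the run of lower values went from HOXB2 to HOXB9.

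The neighbours of clusters C and D had medians on the other side of 0 from the members, whose own medians, 0.05 and -0.02, were near 0. Over all measured genes 39.5% were lower and 59.2% higher. Next to cluster C, 6 of 8 measured neighbours were lower, and their median was -0.09. They ran from NFE2 at -0.22 and the heterochromatin protein gene CBX5 at -0.19 to CALCOCO1 at 0.24, which lies next to HOXC13. Next to cluster D, 4 of 7 were higher, near the share over all measured genes, with a median of 0.15 and MTX2, beside HOXD1, at 0.33. HOXD1 itself was lower, at -0.24. Around cluster A, 8 of 9 measured neighbours were higher, with a median of 0.18, HIBADH at 0.63 and SKAP2 at 0.50; the same stretch of chromosome 7 holds HOXA2, which was dim at 0.16.

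**Figure D3:**
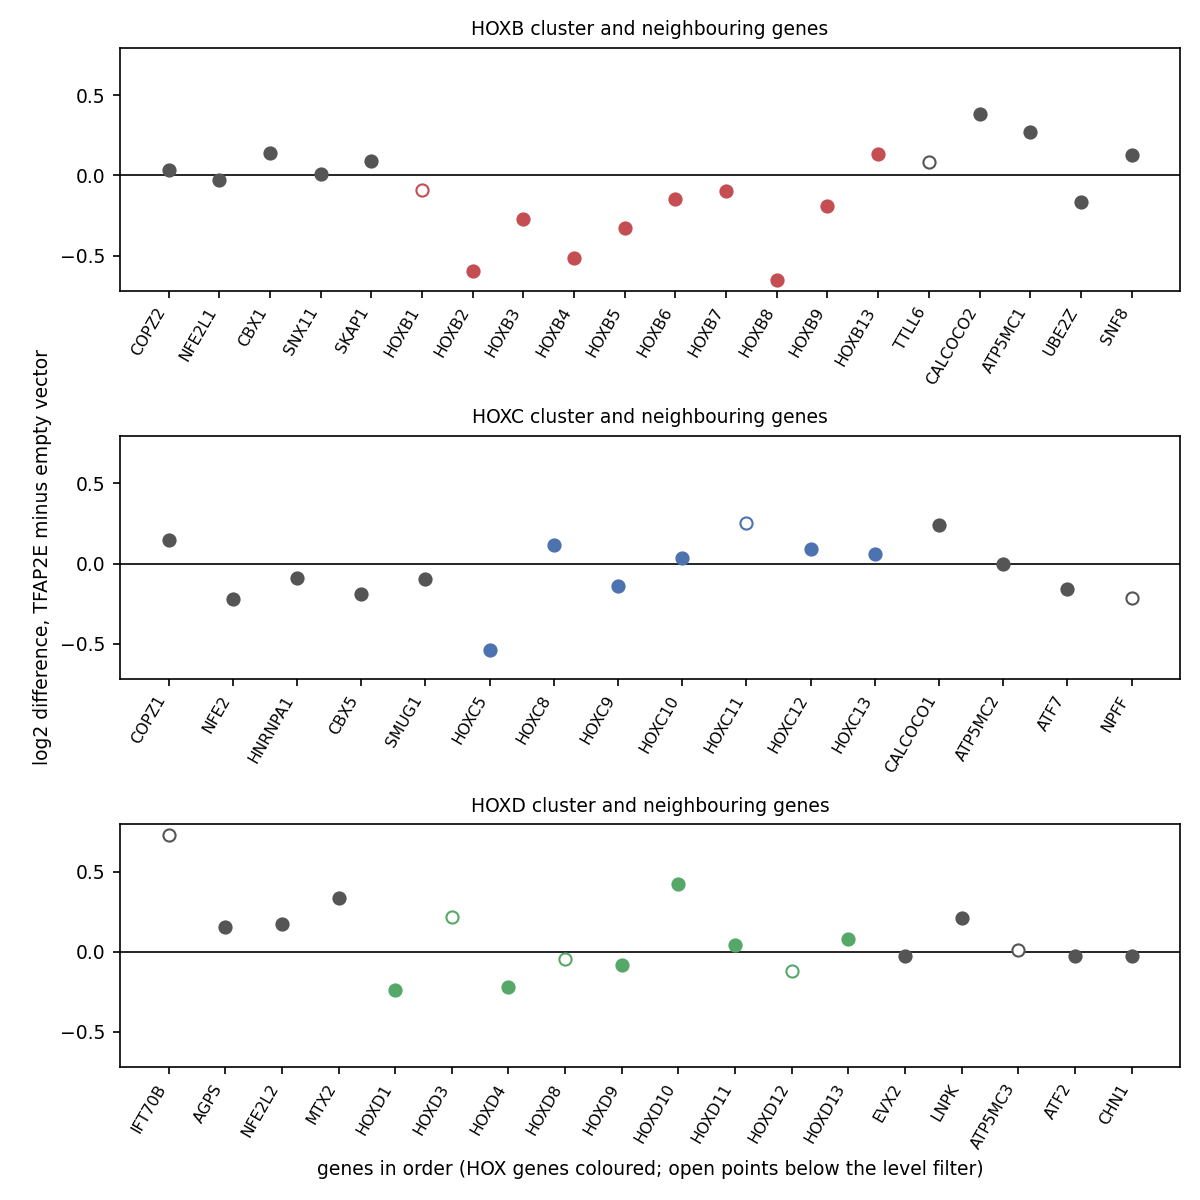
Log2 difference, TFAP2E minus empty vector, of HOX genes (coloured) and their nearest protein-coding neighbours (grey) in gene order for clusters B, C and D, running from the HOX1 end on the left to the HOX13 end on the right; open points are dim. In cluster B the points from HOXB2 to HOXB9 lie between -0.65 and -0.10, while 7 of 9 measured neighbours lie above 0, as do 59.2% of all measured genes.

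Genes that act with HOX proteins or set their expression were described by lists, whose medians lay between -0.04 and 0.06, against -0.14 for the HOX genes. Those of the PRC1, trithorax and Antennapedia class lists changed sign with centring, so that their side of 0 depends on the scaling. The lists and the HOX members were chosen with earlier results of these arrays known. Of 6 measured TALE cofactors, 3 were lower and 2 higher, with MEIS2 at 0 and a median of -0.04. MEIS3 differed by -0.28, PBX4 by -0.17 and PKNOX1 by -0.09, and on the other side PBX3 by 0.14 and PKNOX2 by 0.12. None reached 25%.

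Of the 12 measured genes of Polycomb repressive complex PRC2, which methylates histone H3, 5 were lower and 7 higher (median 0.05). The catalytic subunit EZH2 read 9.34 against 9.21 (0.13), and the core subunits EED (-0.03) and SUZ12 (-0.01) lay near 0. The accessory proteins PHF1 at -0.25 and PHF19 at -0.23 were lowest, and AEBP2 and EPOP, both at 0.21, highest. MTF2, another accessory protein, lay at -0.05. Of the 16 measured genes of complex PRC1, which binds and ubiquitinates chromatin, 8 were lower and 8 higher (median 0.00). CBX6 and RYBP, both at -0.19, and PCGF5 at -0.18 were lowest, and PCGF6 at 0.27, SCMH1 at 0.21 and PCGF1 at 0.20 highest.

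Of the 19 trithorax and COMPASS genes, some of whose products methylate histone H3 at active genes, 8 were lower and 11 higher (median 0.01). PAXIP1 at -0.29, the demethylase KDM6A at -0.18 and KMT2D at -0.17 were lowest, and RBBP5 at 0.23, SETD1B at 0.20 and PSIP1 at 0.18 highest. KMT2A, the methyltransferase known for maintaining HOX expression, differed by 0.02, and its second, less bright probe set by -0.30. Of 10 CTCF and cohesin genes, which fold the clusters into domains, 4 were lower and 6 higher (median 0.05). SMC1A lay at -0.22, PDS5B at -0.15 and CTCF at -0.12, against 0.20 for STAG1, 0.12 for SMC3 and 0.09 for STAG2. No gene of the PRC2, PRC1, trithorax or cohesin lists reached 25%.

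Among the caudal and retinoic acid regulators, which switch HOX clusters on in development, 7 genes were measured, 3 lower and 4 higher (median 0.06). ALDH1A3, which makes retinoic acid, read 8.96 against 10.3 (-1.31) and was the member of this list past the 25% rule. Its second, less bright probe set differed by -0.61. The intestinal factors CDX2 (-0.10) and CDX1 (0.06) and the receptors RARG (-0.03), RXRA (0.06) and RXRB (0.11) lay near 0. CYP26C1, which breaks retinoic acid down, read 6.18 against 5.95 (0.24). Their part in the HOX values was not tested.

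Other homeobox genes of the Antennapedia class, to which the HOX genes belong, had a median difference near 0. Of 30 measured, 14 were lower and 16 higher (median 0.02), and 2 were lower by the 25% rule, MSX1 at -0.44 and BARX2 at -0.32. VAX2 followed at -0.23, and DLX6 at 0.29, NKX6-2 at 0.27 and GBX2 at 0.25 were highest. EVX1 and EVX2, which flank the HOX13 ends of clusters A and D, lay at -0.10 and -0.03.

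**Figure D4:**
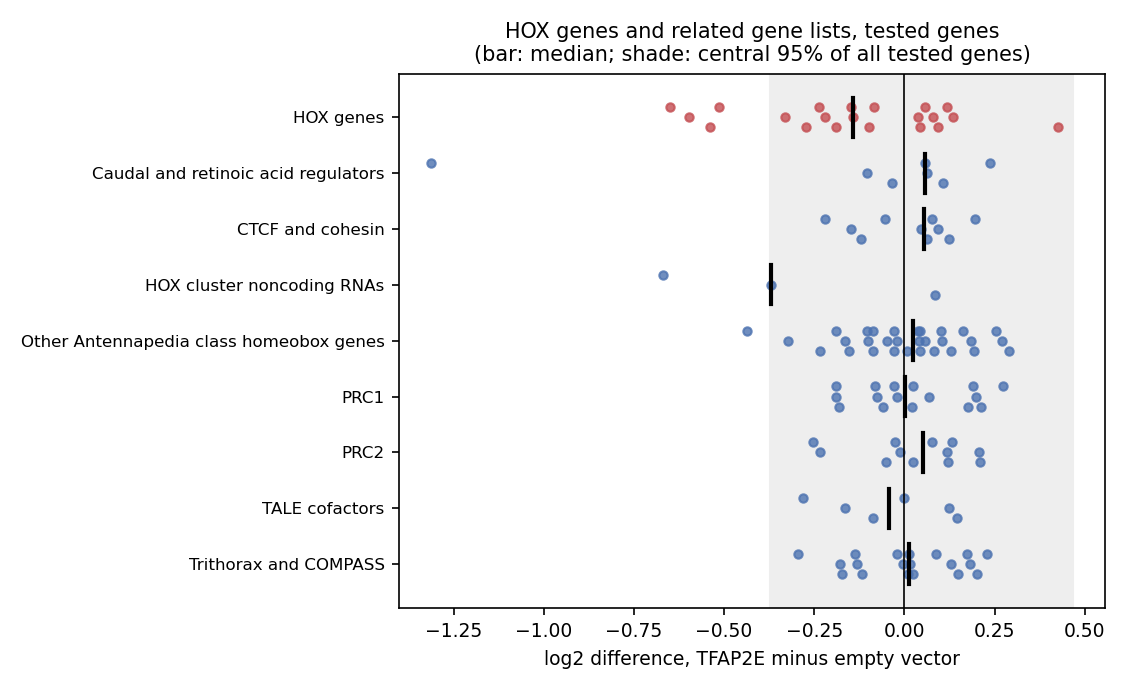
Log2 difference, TFAP2E minus empty vector, of every measured gene in the HOX set and in 8 related lists; black bars are medians and the shaded band holds 95% of all measured genes. The HOX median lies at -0.14, and the medians of the other lists lie between -0.04 and 0.06, except -0.37 for the 3 measured noncoding RNAs of the clusters, a median that is -0.14 with no filter and 0.08 with both values above the line.

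Promoter sequences were available here for 11 of the 27 members, of which 6 were measured. AP-2 proteins bind palindromes of the form GCCNNNGGC, and the same ends spaced by 4 bases instead of 3 are also bound. The letters were searched in the 250 bases before the gene start; each pattern reads the same on both strands, and the patterns may overlap. Either pattern was present in 7 of the 11 promoters. It was present in 32.0% of the 27305 promoters used here and in 46.6% of the 9283 of measured genes. These do not cover every gene. Among the 6 measured members it was present in 2 of 3 genes of groups 1 to 9 (HOXD1 and HOXD4, both lower) and in 3 of 3 of groups 10 to 13 (HOXD10, HOXD11 and HOXD13, all higher). The pattern thus occurred with either sign. A match describes the letters and not a bound site.

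The promoters of HOXD10, the highest member, and HOXC5, the lowest measured one whose promoter was at hand, are shown. HOXB8 and HOXB2 had lower differences but no promoter at hand. HOXC5 was measured through the empty vector array alone, so the filter favoured its lower value. This pair was chosen after the values were seen. Both are from RefSeq (GRCh38.p14), on the plus strand, at chr2:176116528-176116777 and chr12:54016638-54016887, and the latter start is shared by HOXC4, HOXC5 and HOXC6 in the table. Capitals mark the match to the AP-2 palindrome with the spacing of 4 bases.
HOXD10: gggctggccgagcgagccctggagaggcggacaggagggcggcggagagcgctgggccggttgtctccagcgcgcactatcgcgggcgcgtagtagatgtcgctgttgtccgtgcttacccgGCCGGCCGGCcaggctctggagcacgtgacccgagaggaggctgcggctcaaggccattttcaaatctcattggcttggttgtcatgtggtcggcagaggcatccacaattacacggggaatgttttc
HOXC5: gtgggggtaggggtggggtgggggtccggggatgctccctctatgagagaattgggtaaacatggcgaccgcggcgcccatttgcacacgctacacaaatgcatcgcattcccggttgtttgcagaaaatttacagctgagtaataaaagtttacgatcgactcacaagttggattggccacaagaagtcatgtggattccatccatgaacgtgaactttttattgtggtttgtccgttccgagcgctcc
The HOXD10 sequence was 64% G or C with 23 CG pairs, and the HOXC5 sequence 50.8% with 14. The HOXD10 match began 128 bases before the gene start, and the HOXC5 window held neither pattern.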

How the data were processed

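Gene expression was measured in SW480 cells on 2 Affymetrix arrays, 1 per group. The deposited values are log2 expression values of 33297 probe sets, which the authors obtained with RMA according to the labels (per the submitters' processing notes). The sources used here name neither its version nor a genome build. RMA sets both arrays to a common distribution, so a change of all transcripts in 1 direction would not appear. Gene names came from the platform annotation: 19460 had 1 symbol, 1754 several and 12083 none. Symbols were updated through Entrez identifiers in a RefSeq table (GRCh38.p14), which held 19429 of them and also gave gene order. The brightest probe set by mean stood for a gene. The filter kept genes whose higher value reached the median of all probe sets.

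No test was possible with 1 array per group; fixed sizes of 2-fold, 1.5-fold and 25% served as rules, and the number of arrays limits the precision. Named genes are all measured HOX members, up to 2 dim members per cluster, TFAP2E, and the 3 highest and 3 lowest of each related list; neighbours and others were picked after their values were seen. Members and lists were chosen with earlier results of these data known. Alternatives were centring, quantile normalization, removal of a loess trend (span 0.3), other filters and the mean over probe sets. Scripts (Python 3.11.15, pandas 2.3.3, statsmodels 0.14.6) were tested on simulated data.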

Additional observations from a re-analysis of the deposited data

How the results depend on the processing

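Each measured HOX gene kept its sign under centring, quantile normalization and removal of the loess trend. No other alternative could change the value of a single HOX gene. The filters only keep or drop a gene, and with 1 probe set per HOX gene the mean over probe sets is the same value. Each of 130 alternative values of single HOX genes stayed within 0.219 of its value in the report, but many of these were fixed in advance. That limit is the standard deviation of the difference over all measured genes. It describes spread between genes and not between replicates, so it served only as a fixed rule of size. HOXB8 ranged from -0.70 to -0.65 and HOXD10 from 0.39 to 0.43. The median of the HOX genes ranged from -0.23 to -0.09, and that of cluster B from -0.31 to -0.23, while cluster C kept 0.02 to 0.07 and cluster D -0.05 to -0.02. The median of all genes ranged from 0.01 to 0.06. A filter at the 75th percentile left 6 HOX genes, all of cluster B. They were 6 lower and 0 higher, with 2 lower and 0 higher by the 25% rule, and in groups 1 to 9 they were 6 lower and 0 higher. The fewer genes follow from the filter, and it gave no value for clusters C and D or for groups 10 to 13. With no filter, 3 genes of groups 1 to 9 were higher and 1 of groups 10 to 13 lower. Among all dim genes of the series, 47.2% lay below 0. Counted from the median of all genes, 2 of groups 10 to 13 were lower. These alternatives for the paralog groups, and those for the microRNA genes, were chosen after seeing the data.

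List medians near 0 changed sign. That of the other Antennapedia class genes became -0.0092 with centring, -0.0032 without the loess trend and -0.0070 with both values above the line. That of PRC1 became -0.0318 with centring, -0.0112 with quantile normalization, -0.0210 without the loess trend and -0.13 at the 75th percentile. That of trithorax and COMPASS became -0.0200, -0.0226 and -0.0270 with centring, quantile normalization and without the trend. At the 75th percentile the caudal and retinoic acid list became -0.71, and with both values above the line the noncoding list became 0.0837, since HOXB-AS3 alone remained. With no filter the noncoding list became -0.14. Except where fewer genes entered, the cause was not tested. No paired analysis was possible because there is a single array on either side.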
